A study of Mus musculus with 21 samples.

Results

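The mitochondrial ribosomal protein genes encode the proteins of the ribosome inside mitochondria, and 78 of them were followed here among the 16835 genes listed in any of 3 RNA-sequencing tables. They were taken by symbol, as all gene symbols beginning with Mrpl (large subunit, 49 genes) or Mrps (small subunit, 29 genes) and a number, with pseudogene symbols left out, and all 78 were listed and passed the filter on low counts in each table. The samples came from mice given a control chow diet or a methionine-restricted (MR) diet. Splenic CD8+ T cells, the cytotoxic T cells, were represented by 3 control and 3 MR libraries. Tumors of MC38, a mouse colon carcinoma line, were represented by 4 control and 4 MR libraries, and tumors of BPD6, a mouse melanoma line, by 4 control and 3 MR libraries. Diet was the only treatment that the labels gave, with no strain, age or feeding time given. Nothing in the labels ties a replicate to its own animal, and a p-value here therefore weighs a difference against library-to-library spread, part of which may be technical.

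The mitochondrial ribosome translates the few messenger RNAs made from mitochondrial DNA, which encode core subunits of the respiratory chain and of ATP synthase. All of its proteins are encoded in the nucleus, made on cytosolic ribosomes and imported, and they assemble on ribosomal RNAs that are transcribed inside the mitochondrion. The small subunit reads the messenger RNA, the large subunit forms the peptide bonds, and T cells need mitochondrial translation for their activation and effector function. Of the genes taken by symbol, Mrps18a and Mrps30 encode proteins of the large subunit by structure, and the product of Mrps36 belongs to the 2-oxoglutarate dehydrogenase complex, so subunit comparisons were repeated with these genes reassigned.

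The libraries held 15733774.5 to 24129562.5 estimated counts each. T cell markers summed to 4116 to 4946 CPM (counts scaled to a library total of 1000000) in the CD8+ libraries, with Cd8a at 1189 to 1619 CPM. The tumor libraries held other cells as well, since 6 macrophage markers summed to 359.8 to 1252 CPM in MC38 and 926.3 to 1325 CPM in BPD6. The 4 muscle markers were very uneven within each group. Their sums ran from 2.51 to 1963 CPM in MC38 control and from 2.74 to 2294 CPM in MC38 MR libraries. In BPD6 they ran from 85.5 to 4935 CPM in control and from 36.4 to 3333 CPM in MR libraries. The part of muscle in the tumor results was not tested. Markers of the labelled lineages were low in both tumors. In MC38, Epcam read 0.529 to 8.21 CPM, and the 5 epithelial markers together 4.10 to 80.2 CPM. In BPD6, Pmel, a melanocyte gene, read 0.882 to 1.67 CPM, and the 3 melanocyte markers listed there together 16.7 to 28.6 CPM. The melanocyte genes Mlana, Tyr, Dct and Tyrp1 were not listed in any material. Pmel read 190.5 to 275 CPM in the CD8+ libraries, so it did not mark melanocytes alone here. In such bulk samples, fewer cells of a type and less RNA per cell cannot be told apart. The first MC38 MR library and the first BPD6 control library stood apart in the ways described with those tumors, and the tumor results below are given with and without them where they moved the value.

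The sequences before the transcription start are shown for 4 members on which the diet comparisons below turned, namely Mrps6, the member called in CD8+ T cells, and Mrpl33, Mrps18c and Mrpl34, the members whose diet groups did not overlap in MC38. They are from RefSeq on build GRCm38.p6, run 5′ to 3′ on the plus strand, and end at or before the RefSeq start. They were shortened where annotated exons of coding genes lay in the window. Capitals mark the letters of 5 searched motifs, on either strand, which are GCATGCGC (core of NRF1, a regulator of nuclear genes for mitochondria), CCGGAAG (core bound by ETS factors), AAGATGGC (core of YY1), CACGTG (the E-box) and GGGCGG (the GC box, added after the Mrps6 window had been seen).
Mrps6, chr16:92058086-92058289: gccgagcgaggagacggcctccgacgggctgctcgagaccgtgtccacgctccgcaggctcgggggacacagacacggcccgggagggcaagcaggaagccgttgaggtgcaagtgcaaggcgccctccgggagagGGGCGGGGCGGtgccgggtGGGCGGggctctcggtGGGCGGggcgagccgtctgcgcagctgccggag
Mrpl33, chr5:31613701-31613950: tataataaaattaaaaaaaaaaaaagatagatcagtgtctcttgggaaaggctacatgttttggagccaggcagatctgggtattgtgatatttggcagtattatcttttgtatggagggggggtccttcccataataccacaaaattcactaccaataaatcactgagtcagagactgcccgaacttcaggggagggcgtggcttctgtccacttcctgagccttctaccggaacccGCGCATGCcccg
Mrps18c, chr5:100798579-100798646: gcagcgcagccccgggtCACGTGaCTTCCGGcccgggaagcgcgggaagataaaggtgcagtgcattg
Mrpl34, chr8:71464676-71464925: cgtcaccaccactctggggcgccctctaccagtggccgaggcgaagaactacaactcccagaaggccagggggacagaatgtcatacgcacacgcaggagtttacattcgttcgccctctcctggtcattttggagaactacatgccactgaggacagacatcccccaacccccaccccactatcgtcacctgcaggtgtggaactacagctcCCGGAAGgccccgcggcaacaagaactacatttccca
The Mrps6 window held 4 GC boxes, the first overlapping the second, and no other motif searched. The Mrpl33 window held the NRF1 core on the reverse strand, Mrps18c an E-box followed by an ETS core on the reverse strand, and Mrpl34 an ETS core on the forward strand.

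Windows from 250 bases before to 50 after the start were given for 69 of the 78 members and searched for all 5 motifs. The ETS core was found in 26 members (37.7%), against 9.93% of all 27025 genes with a window and 19.2% of those also tested in MC38. The YY1 core was found in 12 members (17.4%), against 3.19% and 4.95%, and the NRF1 core in 8 (11.6%), against 3.05% and 5.65%. The E-box was found in 5 (7.25%), against 8.09% and 11.5%, and the GC box in 34 (49.3%), against 38.2% and 66.5%. Of the 69 members, 40 held at least 1 of the first 4 motifs. A match is a description of letters in a window, and none of these shares was tested.

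In control libraries the members were transcribed at levels above those of most genes. Per kilobase of transcript, their median was 28.7 CPM per kb in CD8+ T cells, 35.2 in MC38 and 28.7 in BPD6, against 9.11, 10.3 and 9.24 CPM per kb over all genes tested. The median of the large subunit genes was 32.5, 41.3 and 30.2 CPM per kb in the same order, and that of the small subunit genes was 27.8, 30.1 and 26.4. The order of the genes was shared between the materials, with a Spearman correlation over the 78 genes of 0.75 between CD8+ T cells and MC38, 0.80 between CD8+ T cells and BPD6 and 0.90 between the tumors, where transcript lengths are common to most of the points. Neighbours in the order overlapped in their library values in 71 (CD8+), 75 (MC38) and 76 (BPD6) of 77 adjacent pairs, so the fine order was not resolved.

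Mrpl12, the protein of the flexible stalk that recruits translation factors, Mrpl33, Mrpl52 and the small subunit gene Mrps21 were among the 10 highest members in every material. Mrpl52 stood at 125 ± 11.4 (SD, n = 3), 118 ± 27.0 (SD, n = 4) and 149 ± 28.2 (SD, n = 4) CPM per kb in CD8+, MC38 and BPD6 controls, each scaled within its own table. Mrpl1, Mrpl11 (the base of the stalk), Mrpl35, Mrpl47 and Mrps5 were among the 10 lowest in every material, with Mrpl47 lowest in both tumors at 4.95 ± 0.797 and 3.76 ± 0.604 CPM per kb (SD, n = 4 each). This order is per kb and depends on the transcript length given to each gene. Before division by length, Mrps5 (4481 bases) read 57.4 CPM in MC38 controls, above Mrpl52 (418 bases) at 49.2 CPM. Mrpl47 (3364 bases) was low on that scale too, at 16.6 CPM. A few genes left the common order. Mrpl24 was the highest member in CD8+ control cells, with 343, 366 and 406 CPM in the 3 libraries or 303 ± 25.9 CPM per kb (SD, n = 3), while the same transcript stood at 64.0 ± 6.19 in MC38 and 41.6 ± 3.86 CPM per kb (SD, n = 4 each) in BPD6 controls. Exons of Mrpl24 overlap those of Rrnad1 on the other strand. Mrps9 showed the same order, at 97.95 CPM per kb in CD8+, 26.1 in MC38 and 21.2 in BPD6, and Mrpl17 the opposite one, at 2.56, 7.62 and 10.3 CPM per kb. These levels across materials are set side by side without a test.

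**Figure D1:**
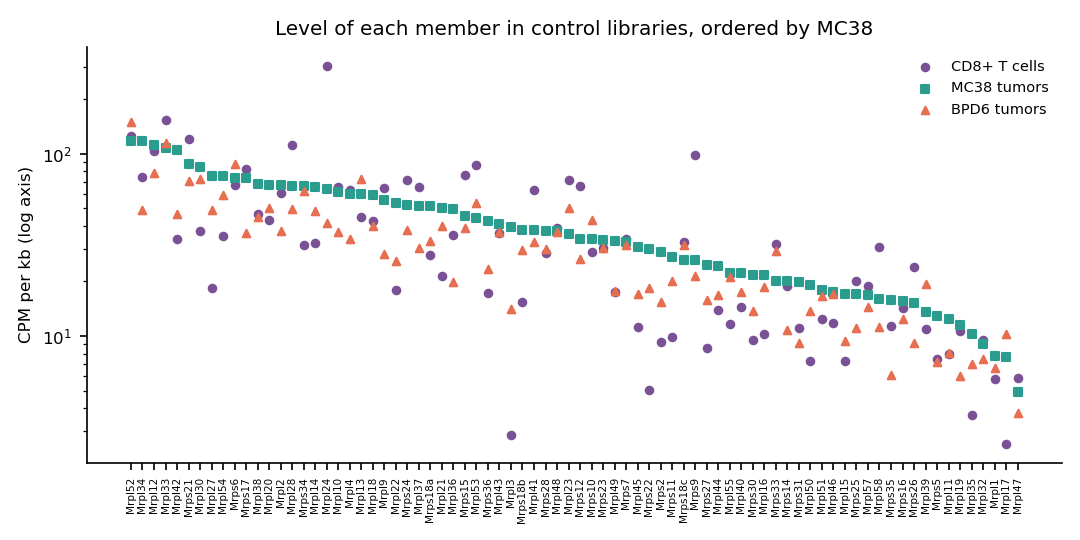
Mean level of each of the 78 members in control libraries, in CPM per kb on a log axis, with the genes ordered by their level in MC38 and 1 symbol per material (3 CD8+, 4 MC38 and 4 BPD6 libraries). The 3 series fall together from left to right, and Mrpl24 (303 CPM per kb) and Mrps9 (97.95) stand out in CD8+ T cells.

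The balance of the subunits was close to constant. The summed CPM of the large subunit genes over that of the small subunit genes had a log2 ratio between 0.85 and 1.01 in all 21 libraries. Control and MR libraries overlapped in this ratio in CD8+ T cells (0.85 to 0.97 against 0.90 to 1.01), in MC38 (0.92 to 0.97 against 0.95 to 0.96) and in BPD6 (0.93 to 0.98 against 0.96 to 1.01). The median diet difference of the large subunit genes minus that of the small subunit genes was −0.05 (log2) in CD8+ T cells and below 0.01 in size in both tumors, with a value of 0.003 in each. With Mrps18a and Mrps30 moved to the large subunit and Mrps36 left out, the medians of the large and small subunit genes were −0.10 and −0.06 in CD8+ T cells, 0.19 and 0.19 in MC38 and −0.05 and −0.06 in BPD6.

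In splenic CD8+ T cells, 1 member, Mrps6, was lower on the MR diet, and no other member passed the test. Of the 78 members, 1 was called at an adjusted p under 0.05, against 0.818% of the 12348 genes tested that were called lower and 1.41% called in either direction. The fitted difference was above 0 for 26 members and below 0 for 52, while 50.4% of all genes were above 0. The median was −0.09 (log2) over the members, −0.11 over the large and −0.06 over the small subunit genes, and 0.01 over all genes. With library totals in place of TMM scaling, the median of all genes moved to 0.08, and those of the large and small subunit genes to −0.04 and 0.01, so the sign of the small subunit median depended on the scaling. Single libraries moved the number of members above 0 from 20 (without the second MR library) to 36 (without the third).

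Mrps6, the mitochondrial counterpart of a bacterial small subunit protein, read 61.0, 52.0 and 57.5 CPM in the control libraries and 21.2, 33.6 and 32.7 CPM in the MR libraries. Every MR library was below every control library. The log2 fold change was −0.96 ± 0.18 (SE) with an adjusted p of 0.0211 in edgeR's quasi-likelihood test, and lower in 3 of 3 MR libraries. The call was lost without the first control library (−0.91, adjusted p = 0.0728) and without the first MR library (−0.78, adjusted p = 0.172), over a range of 0.0142 to 0.172 when each library was left out in turn. DESeq2 also called Mrps6 alone among the members, with an adjusted p of 0.000422, where it called 5.13% of the genes it gave an adjusted p. The authors' deposited table gave a log2 fold change of −0.96 and an adjusted p of 0.000445 for Mrps6.

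Mrps6 shares its start with another gene. The gene lies on chromosome 16 from 92058270 to 92112227 on the plus strand, and Slc5a3, which encodes a sodium-coupled myo-inositol transporter, lies within it from 92058322 to 92087473 on the same strand. Their first exons share 159 bases, and their RefSeq starts are 14 bases apart, so reads of the shared exon cannot be assigned to either gene by position. Slc5a3 read 26.4, 19.7 and 24.8 CPM in control and 11.2, 12 and 12.6 CPM in MR libraries of CD8+ T cells. It fell by nearly the same amount, with a log2 fold change of −0.99 ± 0.19 (SE) and an adjusted p of 0.0254. The call of Slc5a3 was also lost in some fits with 1 library left out, where the adjusted p ranged from 0.0246 to 0.185. How many of the reads of either gene lie in the shared exon was not tested.

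In the tumors the pair did not pass the test. Mrps6 read 48.0, 68.3, 73.6 and 58.5 CPM in MC38 controls and 108, 81.8, 67.2 and 51.8 CPM in MC38 MR libraries, with a log2 fold change of 0.32 ± 0.22 (SE, adjusted p = 0.506). Slc5a3 had a log2 fold change of −0.08 ± 0.15 there. In BPD6, Mrps6 read 93.7, 62.9, 65.8 and 73.1 CPM in control and 50.9, 65.4 and 59.1 CPM in MR libraries, with overlapping groups and a log2 fold change of −0.34 ± 0.16 (SE, adjusted p = 0.99972), beside −0.44 ± 0.22 for Slc5a3.

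**Figure D2:**
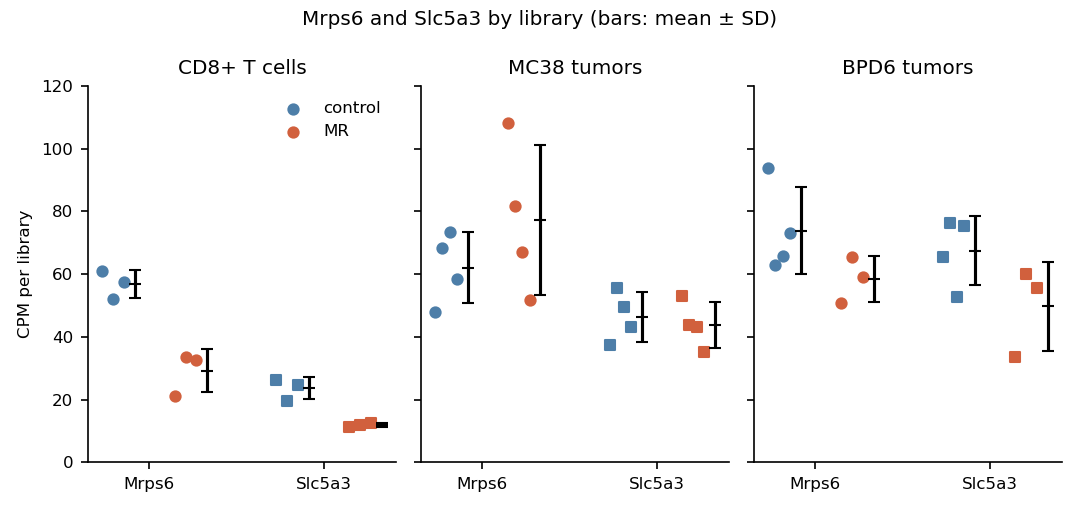
CPM of Mrps6 (circles) and Slc5a3 (squares) in every library by material and diet, with bars for the mean ± SD of 3 or 4 libraries per group. In CD8+ T cells the MR libraries of both genes lie below all control libraries, and in the tumors the groups of Mrps6 overlap.

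Among the other members in CD8+ T cells, 5 had groups that did not overlap. With Mrps6 this made 6 of 78, against 22.4% of all genes tested. Mrps15, a small subunit protein with a bacterial counterpart, read 71.9, 68.9 and 73.4 CPM in control and 49.7, 60.5 and 55.7 CPM in MR libraries (log2 fold change −0.37 ± 0.14, adjusted p = 0.188). Mrpl16, a large subunit protein, read 13.4, 11.5 and 10.9 CPM in control and 17.1, 19.2 and 14.7 CPM in MR libraries (0.51 ± 0.21, adjusted p = 0.214). Mrpl53 and Mrps24 were the further genes with every MR library below the controls, and Mrps2 with every MR library above. Mrpl53 and Mrps24 share exon bases with another coding gene on the same strand. In all, 3 members had an unadjusted p under 0.05, against 17.3% of all genes. Without the second MR library the count was 13 (2365 of 12683 genes), without the third MR library 7, without the second control library 5, and without the third control or the first MR library 1. The other large subunit genes of lowest p were Mrpl30 (0.33), Mrpl34 (−0.28) and Mrpl47 (−0.38), and the other small subunit genes were Mrps18b (0.44), Mrps17 (−0.32) and Mrps12 (−0.39), the protein of the decoding centre. Of the members followed for their roles, Mrpl3 had 0.40 ± 0.29, Mrpl12 −0.36 ± 0.21, Mrpl11 0.17 ± 0.19 and Mrpl58 0.04 ± 0.17, none past the test. Mrps18a (−0.07), Mrps18c (−0.03), Mrps30 (0.03) and Mrps36 (−0.01) lay near 0.

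Markers of other cells and of cycling cells differed between these libraries as well. The fitted difference was below 0 for all 8 proliferation markers (4 called), with a summed level of 170.5 to 206 CPM in control and 99.8 to 143 CPM in MR libraries. The 5 B cell markers (46.9 to 254 against 58.7 to 101 CPM), the 3 NK cell markers (72.6 to 123 against 44.7 to 83.2 CPM, 1 called) and both CD4 markers (103 to 128 against 51.2 to 97.1 CPM) had differences below 0 as well. So had both red cell markers tested (none called), where the 3 listed summed to 17.4 to 37.8 against 5.83 to 14.4 CPM. The difference was also below 0 for 4 of 6 macrophage markers (171 to 289 against 108 to 218 CPM, 1 called). Other markers went the other way, with none called. The endothelial sum was higher with MR, at 87.2 to 96.1 CPM in control and 108 to 126 CPM in MR libraries. Both melanocyte markers tested and the 1 fibroblast and 1 muscle marker tested were above 0. The 1 fat cell marker tested was below 0, and the 2 epithelial markers tested split. The 6 T cell markers split evenly, but their sum was separate by diet, at 4555 to 4946 CPM in control and 4116 to 4439 CPM in MR libraries, and none of these lists summed to 0 in any library. Their part in the Mrps6 difference was not tested.

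In MC38 tumors, nearly all members read slightly higher on the MR diet, and none passed the test. The fitted difference was above 0 for 74 of 78 members, 48 of 49 in the large and 26 of 29 in the small subunit, while 53.6% of all 14034 genes tested were above 0. The median was 0.19 (log2) for the members and for each subunit, against 0.02 over all genes. edgeR called 0 members and 0% of all genes at an adjusted p under 0.05. At an unadjusted p under 0.05 there were 10 members, all higher, against 7.3% of all genes that were higher and 14.1% in either direction. DESeq2 called 1 member, Mrpl33, with an adjusted p of 0.0418, among 3.06% of the genes for which it gave an adjusted p, and in the authors' deposited table Mrpl33 was the only member past 0.05.

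Mrpl33, the counterpart of a bacterial large subunit protein, read 50.7, 52.8, 56.2 and 45.7 CPM in control and 80.3, 62.6, 64.4 and 64.9 CPM in MR tumors. Every MR library was above every control library, and the log2 fold change was 0.41 ± 0.11 (SE, edgeR adjusted p = 0.255). Mrps18c, a relative of Mrps18a and Mrps18b, read 16.2, 17.3, 17.0 and 16.1 CPM in control and 33.7, 21.3, 23.97 and 19.2 CPM in MR tumors. Its log2 fold change, 0.56 ± 0.17 (adjusted p = 0.263), was the highest of the members, while Mrps18a and Mrps18b had 0.02 ± 0.18 and 0.14 ± 0.17. Mrpl34 read 66.6, 70.7, 75.6 and 72.3 CPM in control and 105, 92.4, 81.0 and 75.8 CPM in MR tumors (0.31 ± 0.11, adjusted p = 0.297). Mrpl34 was the remaining member without overlap, so that 3 of 78 had separate groups with MR higher, against 4.05% of all genes, and 8.76% of all genes had separate groups in either direction.

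Both Mrps18c and Mrpl33 were highest in the first MR library, without which their log2 fold changes were 0.37 and 0.32, and that of Mrpl34 was 0.22.

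The further genes of lowest p in MC38 had overlapping groups. Mrpl11 had a log2 fold change of 0.51 ± 0.19, Mrps21 of 0.49 ± 0.17 and Mrps28 of 0.41 ± 0.18. Mrpl41 (0.35 ± 0.14) and Mrpl54 (0.28 ± 0.11) completed the large subunit genes, and Mrps9 (0.32 ± 0.17) and Mrps36 (0.27 ± 0.15) the small subunit genes. Without the first MR library, Mrpl11 had 0.30, Mrps21 0.33 and Mrps36 0.13. Mrps2 was at the other end of the order, at −0.10 ± 0.11. Mrps30 (−0.02 ± 0.17), also near 0, belongs to the large subunit by structure. Mrpl58, the peptidyl-tRNA hydrolase built into the large subunit, had 0.19 ± 0.13, and Mrpl12 of the stalk 0.17 ± 0.20. Mrps12 had 0.17 ± 0.21 and Mrpl3 0.18 ± 0.16.

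**Figure D3:**
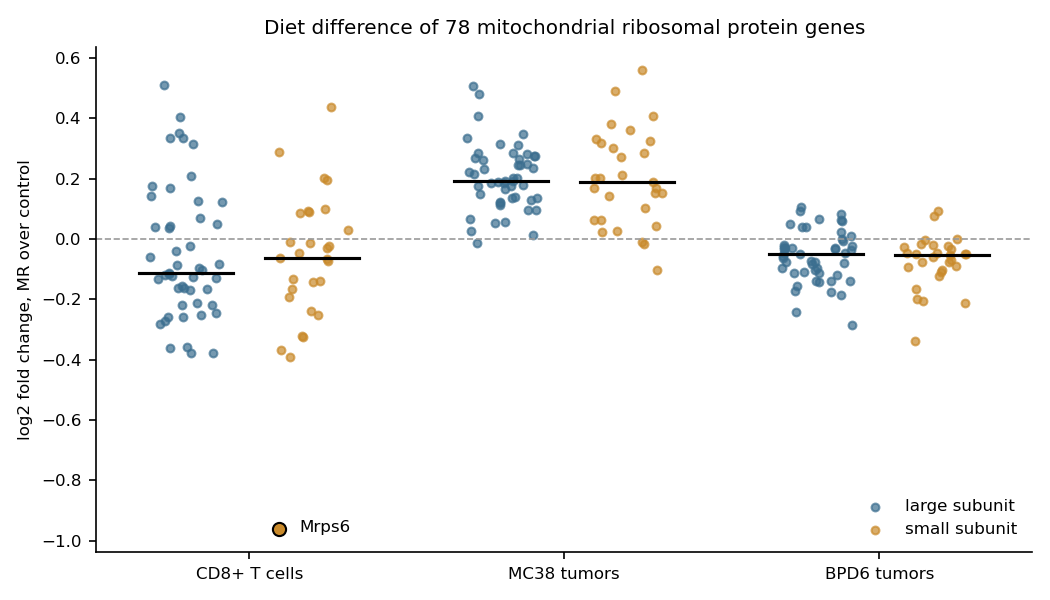
Log2 fold change of MR over control for each of the 78 members in the 3 materials, large subunit in blue and small subunit in orange, with black bars for the subunit medians. The MC38 points lie above 0 for 74 of 78 genes around medians of 0.19, the BPD6 points lie around −0.05, and Mrps6 (−0.96) stands alone in CD8+ T cells.

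Transcript length moved with the MC38 difference. Members have short transcripts, with a median of 1221 bases against 2651 bases over all MC38 rows, and among genes that are not members, short transcripts also read higher with MR. Below 700 bases the median difference was 0.28 (log2) for 12 members and 0.27 for the other genes. From 700 to below 1000 bases it was 0.20 for 18 members and 0.24 for the others, from 1000 to below 1500 bases 0.19 for 21 members and 0.19, and from 1500 to below 2500 bases 0.06 for 10 members and 0.08. In these 4 bins members and other genes of like length therefore differed by 0.05 or less. From 2500 bases the values parted, at 0.18 for 17 members (16 above 0) and −0.08 for the other genes, of which 36.9% were above 0. The largest differences among these long-transcript members were those of Mrpl11 (0.51), Mrps16 (0.36), Mrpl51 (0.33) and Mrps35 (0.30), named after their values had been seen. These medians rested in part on the first MR library. Without it they were, from the shortest to the longest bin, 0.23, 0.04, 0.03, −0.05 and 0.07 for members and 0.15, 0.15, 0.10, 0.03 and −0.06 for the other genes, so that from 700 to below 2500 bases the members lay below the others.

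A fit that removed a smooth trend on transcript length from each library left 48 of 78 members above 0 (48% of all genes), a median of 0.01, and 1 member at an unadjusted p under 0.05 (9.31% of all genes). The 17 members with transcripts of 2500 bases or more kept a median of 0.23 in that fit, all 17 above 0, against −0.02 for the other genes of that length. Bins under 20 members rest on few genes, and these medians were not tested.

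**Figure D4:**
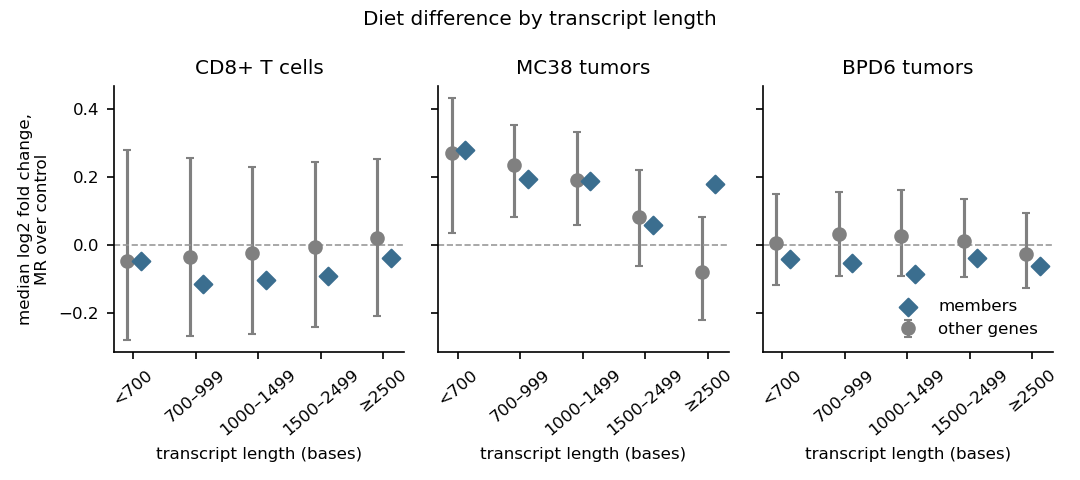
Median log2 fold change of MR over control by transcript length, for members (blue diamonds) and all other genes tested (grey circles, bars from the lower to the upper quartile), in 3 materials. In MC38 both series fall from about 0.28 below 700 bases, and they part from 2500 bases, where members are at 0.18 and other genes at −0.08.

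The length trend was uneven over the tumor libraries. For each library, the slope of the deviation of log2 counts on log2 transcript length was taken over all genes. In MC38 it was 0.090, 0.020, 0.026 and 0.092 (log2 per doubling of length) in controls and −0.186, −0.038, −0.034 and 0.030 in MR libraries. The mean deviation of the members from their own MC38 mean was −0.20, −0.01, 0.07 and −0.23 (log2) in the same controls and 0.46, 0.03, 0.03 and −0.15 in the MR libraries. The first MR library thus had both the most negative slope and the highest members, with 77 of 78 above their mean. Without it, 50 members were above 0, the median was 0.06, and 4 members had an unadjusted p under 0.05. Leaving out any other single MC38 library kept 67 to 77 members above 0. The 4 fat cell markers, with sums of 8.87 to 53.9 CPM in control and 20.8 to 347 CPM in MR tumors, the 6 macrophage markers (359.8 to 727 against 465.7 to 1252 CPM) and the 6 T cell markers (14.8 to 25.6 against 15.2 to 67.3 CPM) were all higher with MR, none called. The part of length, of this library and of these cells in the MC38 difference was not tested.

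**Figure D5:**
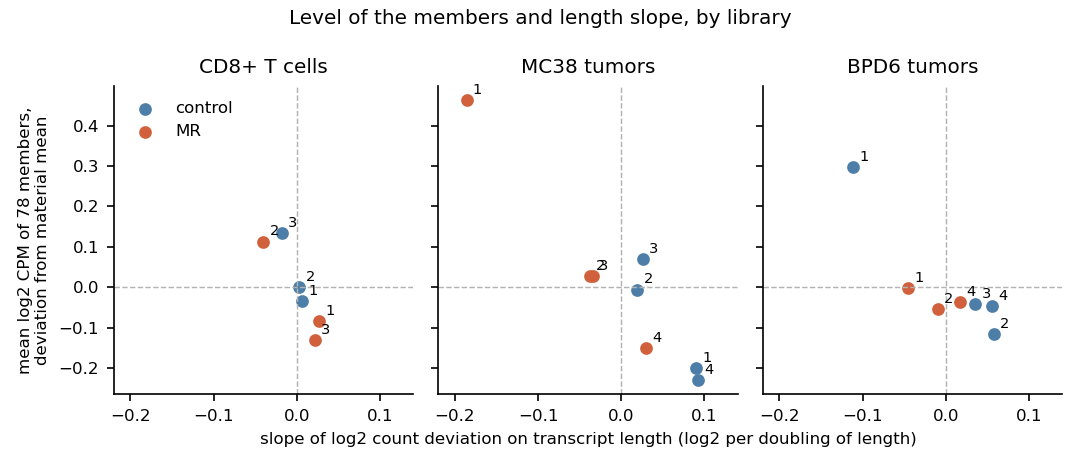
Mean deviation of the 78 members from their mean over the material (log2 CPM) against the slope of log2 counts on transcript length in each of the 21 libraries, coloured by diet and numbered by replicate. The first MC38 MR library (0.46 at a slope of −0.186) and the first BPD6 control library (0.30 at −0.111) lie apart at the upper left.

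In BPD6 tumors the members did not differ by diet past the test. edgeR called 0 of 78 members and 0% of the 13978 genes tested, DESeq2 and limma-voom also called 0 members, and 0 members had an unadjusted p under 0.05, against 1.85% of all genes. No member had separate groups, against 3.4% of all genes. The difference was below 0 for 64 members, against 51.6% of all genes, with a median of −0.05 for the members and for each subunit and −0.01 over all genes. This sign rested on the first control library, in which the members stood 0.30 (log2) above their mean, against −0.12 to 0.00 in the other 6 libraries. Without it, 60 of 78 members were above 0, with a median of 0.05.

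The BPD6 members of lowest p show the size of these differences. Mrpl46, a large subunit protein, read 23.6, 16.2, 17.7 and 19.2 CPM in control and 15.9, 14.98 and 16.3 CPM in MR tumors (−0.29 ± 0.15, adjusted p = 0.99972). The MR libraries lay at the low end, and only the highest of them reached past the lowest control library. Mrpl34 (−0.24 ± 0.15), Mrps21 (−0.21 ± 0.12), Mrps26 (−0.20 ± 0.12), Mrpl18 (−0.19 ± 0.15), Mrpl39 (−0.18 ± 0.11), Mrps18c (−0.17 ± 0.15), Mrpl38 (−0.14 ± 0.11) and Mrps25 (−0.12 ± 0.11) were the other members of lowest p in their subunits, and Mrpl43 (0.11 ± 0.16) was at the upper end. Of the members followed for their roles, Mrpl12 had −0.16 ± 0.18, Mrpl11 −0.11 ± 0.17, Mrps12 −0.08 ± 0.17, Mrpl58 −0.03 ± 0.16 and Mrpl3, which lies near the peptidyl transferase centre, −0.08 ± 0.12. Mrps2 (−0.02 ± 0.12), Mrps18b (−0.05 ± 0.12), Mrps30 (−0.02 ± 0.11) and Mrps36 (−0.06 ± 0.14) were below 0 as well, and Mrps18a was at −0.003 ± 0.09.

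Whether the diet difference itself differed between the tumors was tested as the interaction of model and diet. edgeR called 0 of 78 members, as of all 14257 genes tested (0%). At an unadjusted p under 0.05 there were 8 members, each with a more negative MR difference in BPD6 than in MC38, against 2.9% of all genes in that direction. The term was below 0 for 75 of 78 members, against 53.8% of all genes, with a median of −0.26 (log2) against −0.03 over all genes. Mrps21 had the lowest p, with a term of −0.70 ± 0.23 (SE, adjusted p = 0.849), though the tables gave it different transcripts. Mrps18c (−0.73 ± 0.24), Mrpl34 (−0.55 ± 0.19), Mrpl33 (−0.53 ± 0.21), Mrpl11 (−0.62 ± 0.27), Mrps6 (−0.65 ± 0.30), Mrpl20 (−0.42 ± 0.19) and Mrpl57 (−0.35 ± 0.16) followed, and Mrps2 was highest at 0.09 ± 0.16. With the first MC38 MR and the first BPD6 control library both left out, a choice made after seeing the data, the median was −0.01, 38 of 78 members were above 0 and 3 had an unadjusted p under 0.05. Over all 14235 genes in that fit the median was −0.01, 6892 were above 0 and 650 had an unadjusted p under 0.05. The terms of Mrps18c and Mrps21 were then −0.40 and −0.46. With the length correction the median was −0.10 and 20 were above 0.

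Across materials, 2 members, Mrpl23 and Mrpl30, had a fitted difference above 0 in all 3, another 32 in 2 of them and 44 in 1. Mrpl23, a protein at the exit of the peptide tunnel, had 0.31 ± 0.18 in CD8+ T cells, 0.24 ± 0.11 in MC38 and 0.04 ± 0.10 in BPD6. Mrpl30 had 0.33 ± 0.17, 0.19 ± 0.18 and 0.06 ± 0.11 in the same order. Neither passed the test in any of them.

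Differences between the tumor models on control diet were larger than those by diet. Of 78 members, 39 were called, against 63.3% of the genes tested, 11 higher in BPD6 (against 32.6% of 14257 genes) and 28 lower (against 30.7%), and the median was −0.16 (log2) against 0.04 over all genes. The split depended on scaling. With library totals in place of TMM the median over all genes moved to −0.25 and that of the members to −0.45. In that fit 4 members were called higher and 44 lower, against 3378 higher and 6068 lower of all 14257 genes. The members lay 0.19 below the median of all genes with either scaling. By symbol the large and small subunit genes had like medians (−0.15 and −0.17), and by structure these were −0.16 and −0.07. With the length correction the median over all genes was −0.13 and that of the members −0.20. Without the first BPD6 control library the median of the members was −0.28, with 5 called higher and 30 lower, while that of all genes stayed at 0.04. Without the third MC38 control library it was −0.10, and without the second BPD6 control library also −0.10. Without the fourth MC38 control library it was −0.25. The tables gave the same transcript for 32 of the 39 called members.

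On CPM scaled jointly over both tumor tables, Mrpl36, the counterpart of a bacterial large subunit protein, read 40.3, 43.7, 43.6 and 41.0 CPM in MC38 and 24.3, 17.4, 19.7 and 19.6 CPM in BPD6 controls (log2 difference −1.06 ± 0.10, adjusted p = 5.41e-07). Mrpl34 read 61.4, 64.9, 68.6 and 66.9 CPM in MC38 and 40.7, 30.7, 26.5 and 34.3 CPM in BPD6 controls (−0.99 ± 0.13, adjusted p = 1.12e-05). Mrps5 was lower in BPD6 (−0.56 ± 0.08, adjusted p = 3.05e-05). Mrpl23 was higher, with 22.5, 21.1, 26.2 and 21.9 CPM in MC38 and 40.8, 40.7, 32.8 and 40.8 CPM in BPD6 controls (0.76 ± 0.10, adjusted p = 1.75e-05). The groups of these genes did not overlap. Mrpl15 (−1.74), Mrpl1 (−1.10), Mrpl42 (−0.90) and Mrpl48 (1.18) were also called, but their rows gave different transcripts in the 2 tables, and exons of Mrpl36 and Mrpl48 overlap those of a coding gene on the other strand. Mrps6 (0.52, adjusted p = 0.0376) and Slc5a3 (0.81, adjusted p = 0.00217) were both higher in BPD6. The proliferation markers were lower in BPD6 for 8 of 8 genes (6 called), with sums of 849 to 1219 CPM against 2294 to 2463 CPM in MC38 controls, each scaled within its table. Markers of other cells were separate between the models too. The sum of the 5 fibroblast markers was 4811 to 11365 CPM in BPD6 and 949 to 1655 CPM in MC38 controls (4 called higher), and that of the 6 macrophage markers 926.3 to 1169.5 against 359.8 to 727 CPM (4 called higher). The 3 NK cell markers were called lower in BPD6 and the 3 red cell markers higher. Their part in the model difference was not tested.

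Other genes of mitochondrial translation gave a mixed picture by diet, and none was called. In CD8+ T cells, 4 of 5 mitoribosome subunits with other symbols were below 0 (Dap3, a small subunit GTP-binding protein, −0.29 ± 0.15), as were 15 of 25 assembly and rRNA modification genes, while 7 of 11 translation factors were above 0, with Tufm, the elongation factor Tu, at 0.33 ± 0.15. Of 17 mitochondrial aminoacyl-tRNA synthetases, which charge the tRNAs, 9 were above 0, with Iars2 at 0.54 ± 0.14 (adjusted p = 0.0677). The other 8 were below 0, with Cars2 at −0.51 ± 0.18 (adjusted p = 0.155). At an unadjusted p under 0.05 in edgeR there were 6, against 17.3% of all genes tested. Of these, Iars2 and Rars2 were above 0 and Cars2, Ears2, Tars2 and Lars2 below. In MC38, where 74 of 78 members were above 0, so were 17 of 25 assembly genes (median 0.07), 5 of 11 translation factors (−0.01) and 4 of 17 synthetases (−0.09). Above 0 there as well were 78 of 78 cytosolic ribosomal protein genes (median 0.32) and 75 of 81 nuclear genes of the respiratory chain and ATP synthase (median 0.34). With the length correction these became 66 of 78 (median 0.09) and 70 of 81 (median 0.12), and without the first MR library 73 of 78 (0.12) and 75 of 82 (0.21). In BPD6 the cytosolic ribosomal protein genes (78 of 80 above 0, median 0.13) and the respiratory chain genes (15 of 81, median −0.06) had opposite signs. No gene of these lists was called by diet in either tumor.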

How the data were processed

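Counts were read from 3 tables, 1 per material, each holding 1 row per gene with a RefSeq transcript. The values are estimated counts, deposited by the authors without normalization. All were multiples of 0.5, and 41.0% (CD8+), 46.8% (MC38) and 46.6% (BPD6) were not whole. Per the submitters' processing notes, reads were placed on GRCm38 (mm10). For aligner, counter and strand use, the sources used here give no name. The authors' log2 fold changes and p-values, per the file headers of the deposited tables, were used only where named. A further 21 per-library columns, whose names repeat those of the count columns, were not used. The BPD6 column names use a prefix absent from the labels, and they were matched to diet groups only, so BPD6 replicate numbers are column numbers.

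Counts were rounded and tested with the two-sided quasi-likelihood test of edgeR 4.0.16 (R 4.3.3), with filterByExpr and TMM, within each table (12348, 14034 and 13978 genes) and, for interaction and model, over 14257 of the 14422 genes in both tumor tables. P-values were adjusted by Benjamini-Hochberg over all genes tested, with a threshold of 0.05, and the fit was tested on simulated data. CPM were computed from the same counts, and given per kb of GENCODE M21 transcript length (the gene's median for 10, 9 and 6 members). The length correction entered a loess of log2 count deviation on log2 length per library as an offset. DESeq2 1.42.0, limma-voom (limma 3.58.1), other scalings, no filter and leaving out each library were the alternatives. Exons of 23 members overlap another coding gene, 4 on the same strand, and 3 members have a named pseudogene, so their counts are uncertain. The lowest chi-square per degree of freedom between replicates was 12.8, so no library was counted as a repeat.

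The members and lists were chosen with earlier results of these data known. Named in each diet comparison were the members past the test, the 5 large and 5 small subunit members of lowest p, both ends of the order and 11 fixed members. Genes of the interaction and the model contrast were up to 8 of lowest p and the ends of the order. Names given outside this rule were chosen after their values were seen.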

Additional observations from a re-analysis of the deposited data

Results flagged for a closer look

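In 69 groups of 4 libraries, the highest or lowest library was compared with the others by Dixon's gap test, for which chance alone gives about 1 flag in 20 groups, and 7 were set apart. In MC38 MR tumors, the first library was far above the others for Mrpl33, at 80.3 CPM with the nearest at 64.9, and for Mrps36, at 37.8 CPM with the nearest at 27.1. In BPD6 control tumors, the first library was far above the others for Mrpl38, at 73.1 CPM with the nearest at 61.0, for Mrpl58, at 37.0 CPM with the nearest at 25.6, and for Mrps12, at 29.8 CPM with the nearest at 21.3. The sum over all members in that library was 3508 CPM with the nearest at 2763. Its slope of log2 counts on transcript length was −0.111 with the nearest at 0.035. Both libraries are those whose omission changed the counts of members above 0 in the report.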

How the results depend on the processing

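Of the results for the members as a group, 268 values kept their call or stayed within the spread between libraries over the alternatives, 22 moved, 1 gained and 2 lost a call. For the single genes named, counted per gene and alternative, 1139 values kept their call or lack of a call, 1 gained and 2 lost it. These values include MC38, BPD6 and the interaction, where edgeR called 0 of all genes, so an unchanged lack of a call says little there. The number of CD8+ members called was 1, and 0 to 1 when each library was left out (Mrps6 lost without the first control or the first MR library). The CD8+ median then ran from −0.14 to −0.02, the members above 0 from 20 to 36, and the median of large minus small from −0.0553 to 0.0274. In MC38 no member was called in any fit with 1 library left out, with medians of 0.06 to 0.28, 50 to 77 members above 0 and large minus small from −0.00757 to 0.0537. DESeq2 called 1 member (Mrpl33), and the length correction left 48 above 0. In BPD6 none was called, with medians of −0.11 to 0.05, 10 to 60 members above 0 and large minus small from −0.00688 to 0.0278. The interaction kept 0 calls, with medians of −0.30 to −0.11 and 2 to 18 members above 0. It had 5 of 61 above 0 with the same transcript only, 20 with the length correction, 6 with library totals, and 38 (median −0.00535) without the 2 libraries of steepest length slope. For BPD6 against MC38, 29 to 43 members were called, with medians of −0.28 to −0.10 and 22 to 32 above 0, and library totals gave a median of −0.45 and 12 above 0. The cause of these changes was not tested. Library totals for the tumor contrasts and the omission of 2 libraries were chosen after seeing the data. The labels did not name samples with the same replicate number as pairs. Their deviations had correlations of 0.13, −0.35 and −0.27 in CD8+ and −0.11, −0.35, −0.18 and 0.43 in MC38. Samples of unlike numbers had correlations from −0.31 to 0.51 in CD8+ and from −0.60 to 0.56 in MC38. With such a range, the correlations cannot settle whether samples were paired. With the replicate number as a block, 1 CD8+ and 0 MC38 members were called and no named call changed. No such block was fitted in BPD6, because its MR columns carry other numbers than the labels, and this also holds for the interaction. With 6 to 8 libraries a comparison, sizeable differences may pass undetected, and a missed threshold does not show that diets act alike.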

Other observations

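Many genes that make and serve the mitochondrial ribosome were lower in BPD6 than in MC38 control tumors. Of 25 assembly and rRNA modification genes, 16 were called lower and 2 higher (median −0.61, log2). Of 17 mitochondrial aminoacyl-tRNA synthetases, 10 were lower and 2 higher (−0.41), with Vars2, which charges valine tRNA, at −1.17 ± 0.09 (SE, edgeR adjusted p = 8.05e-08). Of 11 genes of mitochondrial transcription and DNA replication, 7 were lower and none higher (−0.79), among them Lrpprc, which stabilises mitochondrial messenger RNAs, at −1.18 ± 0.11, the mitochondrial RNA polymerase Polrmt at −0.79 ± 0.10 and the DNA-packaging transcription factor Tfam at −0.78 ± 0.12. Of 11 translation factors, 6 were called lower and none higher (−0.27). Of the 5 ribosomal subunits with other symbols, 3 were called lower, among them Dap3 at −0.53 ± 0.13, and 1 higher, Aurkaip1 at 0.41 (adjusted p = 0.0148). With library totals the counts of lower and higher calls were 22 and 2 for assembly, 14 and 1 for synthetases, 10 and 0 for transcription and replication, 10 and 0 for translation factors and 3 and 0 for the other subunits. The tables gave the same transcript for Vars2, Lrpprc, Polrmt and Tfam. Of all 14257 genes, 4377 were called lower and 4651 higher with TMM, with a median of 0.04. Library totals gave 6068 lower and 3378 higher calls over all genes, with a median of −0.25. No difference between these lists, or from the protein genes, was tested.

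Many members had the start of a coding gene on the other strand nearby. A coding gene began within 1000 bases on the opposite strand for 33 of 78 members (42.3%), against 10.9% of 21924 coding genes and 15.6% of those also tested in MC38. Starts on either side were counted, so pairs that overlap and pairs that point apart were not told apart. The partners include other mitochondrial genes. Mrpl46 and Mrps11 were partners of each other. The partner of Mrpl36 was Ndufs6 and that of Mrpl47 was Ndufb5, both of respiratory complex I. The partner of Mrpl43 was the mitochondrial helicase gene Twnk, and that of Mrps12 was the synthetase gene Sars2. These shares are descriptions of the annotation without a test.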
